A study of Mus musculus with 6 samples.

Results

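A set of 10 genes of fatty acid binding, fuel choice and fatty acid oxidation were followed in gastruloids: Fabp3, Fabp5, Pdk4, Cpt1a, Cpt2, Acadm, Acadl, Hadha, Angptl4 and Plin2. They were found by symbol, and all 10 were present among the 53819 gene symbols of the count table. Gastruloids are 3D aggregates of embryonic stem cells in which an axis with a posterior end forms during culture. The groups were 3 libraries of E14 aggregates kept for 80 h with budesonide, a synthetic glucocorticoid, and 3 libraries of E14 aggregates labelled as untreated. E14 is an established mouse embryonic stem cell line, and no other allele, reporter or agent is named for either group. The labels do not say whether untreated aggregates received a vehicle, were collected at the same time or came from separate cultures, so the p-values below measure only the spread between these libraries, which may be technical. The genes were picked with earlier results of this contrast known, and their own changes are therefore given as a description and support nothing.

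Fatty acids enter the cytosol bound to small carrier proteins of the FABP family and are activated to acyl-CoA. CPT1 in the outer mitochondrial membrane passes the acyl group to carnitine, CPT2 in the inner membrane passes it back to CoA, and acyl-CoA dehydrogenases and the trifunctional protein then shorten the chain stepwise by beta-oxidation. PDK4 phosphorylates and switches off pyruvate dehydrogenase, which limits the use of pyruvate as a mitochondrial fuel. Many of these genes are known targets of the PPAR nuclear receptors, and Pdk4 and Angptl4 are also known glucocorticoid targets in adult tissues.

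Libraries held 5666168 to 7476862 counted reads, and 3 reads corresponded to 0.422 to 0.552 CPM (reads scaled to a common library size with TMM factors). Across all genes, 4917 of 17155 tested were called by edgeR (adjusted p below 0.05), which is 28.7%, with 15.2% called higher and 13.5% called lower. The summed level of 6 markers of undifferentiated cells was 1370 to 1489 CPM with budesonide and 1122 to 1151 CPM in untreated libraries. The largest part was Pou5f1 (776 and 734 CPM on average). Neither Pou5f1 nor Tdgf1 was called, while Sox2, Nanog, Utf1 and Dppa4 were called higher. For 6 streak and tailbud markers the sum was 9.02 to 13.2 CPM with budesonide and 254.5 to 271.8 CPM in untreated libraries. The largest parts were T (2.64 CPM with budesonide and 127 CPM without, on average) and Nkx1-2 (3.50 and 89.0 CPM). Of the 6 markers 5 were tested, and all 5 were called lower. Tbx6 was not tested, at 3, 8 and 5 reads with budesonide and 9, 8 and 10 reads without. The untreated libraries thus carried posterior markers of a gastruloid, and the budesonide libraries held far less of the 5 tested ones. In whole aggregates, a change in the number of cells that express a gene and a change in the RNA per cell cannot be told apart, and the part of this shift in the changes below was not tested.

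With budesonide 7 of the 10 genes were called higher, 1 lower and 2 not called, against the 28.7% called over all genes, from which nothing is read because the genes were picked on this contrast. Fabp3, Pdk4 and Cpt1a rose 2.71-fold to 4.10-fold, Plin2 rose by 0.68 on the log2 scale, and Acadm, Acadl and Hadha rose 1.19-fold to 1.24-fold. Fabp5 fell 2.66-fold. Cpt2 and Angptl4 were not called. In 8 of the 10 genes no budesonide library overlapped an untreated library, where this was so for 39.6% of all tested genes. The median log2 fold change was 0.30, and over all tested genes it was -0.02.

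**Figure D1:**
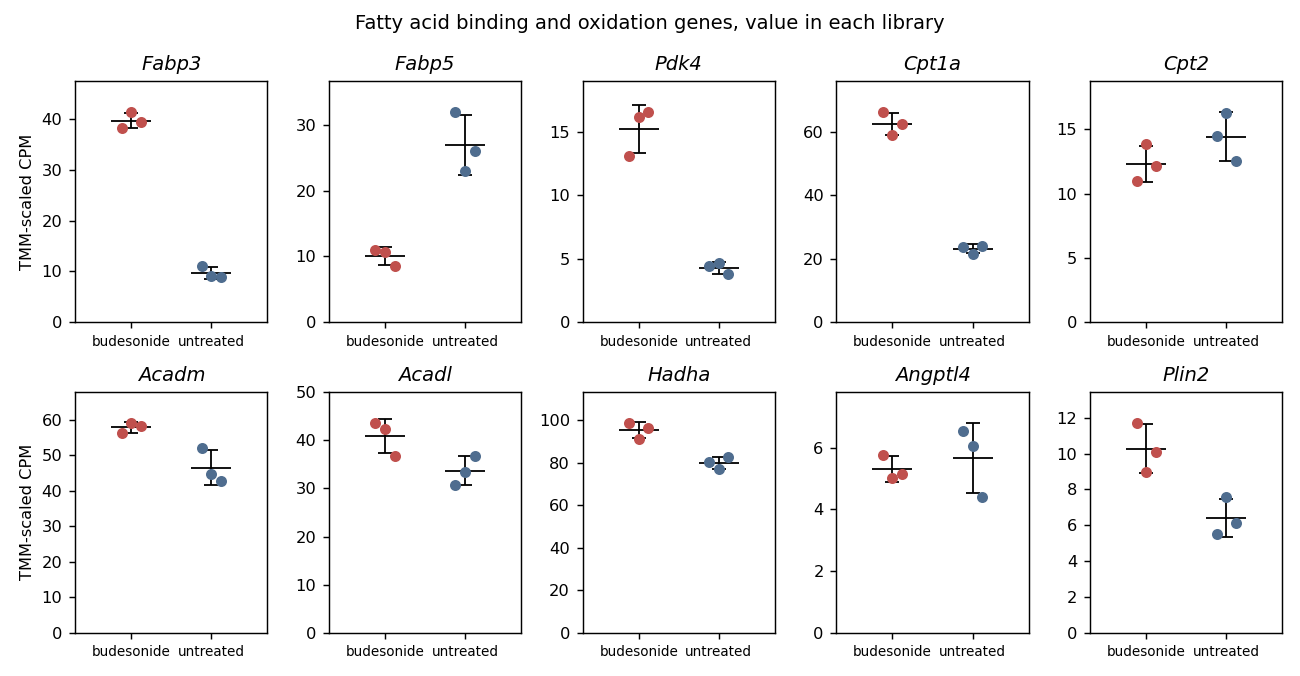
Each panel plots 1 gene, with TMM-scaled CPM on a vertical axis from 0, a point for each of 3 libraries per group, and a line with bars for the mean ± SD. Fabp3, Pdk4 and Cpt1a stand clear of the untreated libraries on the high side and Fabp5 on the low side, while Cpt2 and Angptl4 overlap.

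Fabp3 encodes the heart-type fatty acid binding protein, a cytosolic carrier best known from cardiac and skeletal muscle. It was at 38.3, 41.4 and 39.5 CPM in the budesonide libraries, against 11.0, 9.14 and 8.96 CPM in the untreated libraries. The budesonide values lay close together and far above all untreated values. The log2 fold change of 2.03 ± 0.12 (SE) ranked 7 of 17155 from the top. Its exons overlap by 81 bases with those of Zcchc17 on the other strand, which was at 39.6 ± 5.57 CPM with budesonide and 40.3 ± 1.94 CPM without (SD, n = 3 each), and a near-identical pseudogene, Fabp3-ps1, had at most 7 reads in a library.

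Fabp5, the epidermal-type carrier of the same family, went the other way. It was at 11.0, 10.6 and 8.46 CPM with budesonide, against 31.9, 22.9 and 26.1 CPM in untreated libraries. The log2 fold change was -1.41 ± 0.14 (SE), and the lowest untreated library was still above the highest budesonide library. Within a library, Fabp3 had 3.49, 3.90 and 4.67 reads per Fabp5 read with budesonide, against 0.344, 0.399 and 0.343 in untreated libraries, so the more counted of these carriers was Fabp3 in each budesonide library and Fabp5 in each untreated library. Of the other 8 genes of the family listed, 7 had too few reads to be tested, with group means of at most 0.883 CPM, among them Fabp4, the adipocyte carrier, and Fabp1, the liver carrier. The remaining one, Fabp12, was at 13, 15 and 6 reads with budesonide and 10, 11 and 11 reads without, and was not called (edgeR adjusted p = 0.860).

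Pdk4 was at 13.1, 16.2 and 16.5 CPM with budesonide, against 4.42, 4.64 and 3.77 CPM in untreated libraries. All budesonide libraries stood above all untreated ones, by a log2 fold change of 1.82 ± 0.19 (SE). The counts behind it were low, 93, 110 and 90 reads with budesonide and 29, 33 and 24 reads without.

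Cpt1a encodes the liver-type carnitine palmitoyltransferase, the entry step of long-chain fatty acids into mitochondria. It was at 66.2, 59.2 and 62.5 CPM with budesonide, against 23.6, 21.5 and 24.2 CPM in untreated libraries. The groups were far apart, with a log2 fold change of 1.44 ± 0.09 (SE). Cpt2, the next enzyme of the same shuttle, was at 11.0, 13.8 and 12.1 CPM with budesonide, against 14.5, 16.3 and 12.6 CPM in untreated libraries. These groups overlapped, and the log2 fold change of -0.24 ± 0.15 (SE) was not called. The muscle form Cpt1b had at most 7 reads in a library and was not tested, and the brain form Cpt1c, at 57.4 ± 5.86 CPM with budesonide and 51.6 ± 0.646 CPM without, was not called.

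The upstream sequences of the 3 genes that rose most are shown because these genes changed in the same direction. They are the 250 bases before the annotated start of transcription, from RefSeq on GRCm38.p6, read 5′ to 3′ on the gene's strand, with CCAAT boxes (CCAAT, either strand) and GC boxes (GGGCGG, either strand) in capitals. Fabp3 holds neither, at chr4:130308488-130308737 on the plus strand. Pdk4 is at chr6:5496279-5496528 on the minus strand, and Cpt1a at chr19:3323051-3323300 on the plus strand.
Fabp3: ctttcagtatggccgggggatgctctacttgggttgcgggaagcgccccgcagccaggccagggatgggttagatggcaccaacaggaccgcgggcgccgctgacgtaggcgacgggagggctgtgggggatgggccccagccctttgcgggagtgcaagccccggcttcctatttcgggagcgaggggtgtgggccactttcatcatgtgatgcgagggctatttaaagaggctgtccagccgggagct
Pdk4: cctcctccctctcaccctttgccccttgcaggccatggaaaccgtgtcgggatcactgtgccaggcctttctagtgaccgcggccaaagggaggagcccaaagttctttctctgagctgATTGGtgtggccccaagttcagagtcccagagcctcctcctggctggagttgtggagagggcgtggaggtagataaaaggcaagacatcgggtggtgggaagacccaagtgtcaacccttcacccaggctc
Cpt1a: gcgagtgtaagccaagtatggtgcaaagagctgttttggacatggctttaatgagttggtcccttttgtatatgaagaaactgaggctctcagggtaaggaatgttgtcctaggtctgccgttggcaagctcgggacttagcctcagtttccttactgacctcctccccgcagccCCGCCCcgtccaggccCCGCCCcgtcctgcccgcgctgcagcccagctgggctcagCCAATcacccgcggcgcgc

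Windows were found for 8 of the 10 genes, all but Fabp5 and Angptl4. On either strand, and with up to 1 mismatch, none of the 8 held the PPAR/RXR element AGGTCANAGGTCA, which 0.484% of all 32851 windows held, the ERR element TCAAGGTCA, which 6.35% held, or the glucocorticoid response element, searched as an inverted repeat of AGAACA with 3 free bases between, which 0.140% held. The ERR element and the PPAR/RXR element share the letters AGGTCA. These letters not being in 250 bases says nothing about the receptors, whose known sites are often farther away. A CCAAT box was in the windows of Pdk4, Cpt1a and Plin2 (3 of 8, with 33.8% of all windows), and a GC box in those of Cpt1a, Cpt2, Acadl and Hadha (4 of 8, with 32.7% of all windows). By these 5 motifs alone the 3 most raised genes were not set apart: Fabp3, with the largest rise, held none of them. Other features of the windows were not tested.

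Acyl-CoA dehydrogenases carry out the opening step of beta-oxidation. Acadm, the medium-chain enzyme, was at 56.2, 59.0 and 58.3 CPM with budesonide, against 52.1, 44.7 and 42.7 CPM in untreated libraries. The groups did not overlap, and the log2 fold change was 0.31 ± 0.09 (SE). Acadl, the long-chain enzyme, was at 43.5, 42.2 and 36.8 CPM with budesonide, against 30.8, 33.3 and 36.8 CPM in untreated libraries. Its groups almost touched, with budesonide replicate 3 and untreated replicate 3 at the same level to 3 digits. Its log2 fold change of 0.29 ± 0.10 (SE) was called, but no longer in DESeq2 (0.29), with upper quartile scaling (0.24), with library totals alone (0.21) or with all genes kept (0.26), nor without budesonide replicate 1 (0.24) or 2 (0.28) or untreated replicate 1 (0.24) or 2 (0.28), each value a log2 fold change. Of 7 acyl-CoA dehydrogenase genes, 3 rose, none fell and 4 were not called, where 15.2% of all tested genes were called higher. Nothing is read from this count, since Acadm and Acadl among the 3 were picked on this contrast. The third was Acad11, named after its values were seen, at 30.8 ± 2.91 CPM with budesonide and 23.0 ± 1.10 CPM without.

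Hadha encodes the alpha subunit of the mitochondrial trifunctional protein, which carries out the later steps for long chains. It was at 98.6, 91.4 and 96.3 CPM with budesonide, against 80.3, 77.1 and 82.6 CPM in untreated libraries, and the groups did not overlap. The rise was small, with a log2 fold change of 0.26 ± 0.07 (SE). Hadhb, which encodes the beta subunit of the same protein, fell to 11.8 ± 2.39 CPM with budesonide, against 17.3 ± 2.83 CPM in untreated libraries (SD, n = 3 each; log2 fold change -0.53 ± 0.15, SE; edgeR adjusted p = 0.00616). That call was lost without untreated replicate 3 (log2 fold change -0.39, adjusted p = 0.0982). Per 100 reads of Hadha there were 11.4, 15.8 and 10.1 reads of Hadhb with budesonide, against 20.7, 19.3 and 24.7 in untreated libraries, so the groups did not overlap in this ratio, which does not depend on how libraries are scaled. Exons of Hadha also overlap by 75 bases with Garem2 on the other strand, which fell to 3.62 ± 0.942 CPM with budesonide, against 8.23 ± 1.04 CPM in untreated libraries. Whether the counting used strand is not given in the sources used here, so reads in those bases cannot be told apart.

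The genes for both subunits lie head to head. In RefSeq on GRCm38.p6 their starts of transcription are 273 bases apart, and the 250 bases before each share 228 bases. The window before Hadha, at chr5:30154981-30155230 on the minus strand, is shown with the bases that are also in the window before Hadhb in capitals.
Hadha: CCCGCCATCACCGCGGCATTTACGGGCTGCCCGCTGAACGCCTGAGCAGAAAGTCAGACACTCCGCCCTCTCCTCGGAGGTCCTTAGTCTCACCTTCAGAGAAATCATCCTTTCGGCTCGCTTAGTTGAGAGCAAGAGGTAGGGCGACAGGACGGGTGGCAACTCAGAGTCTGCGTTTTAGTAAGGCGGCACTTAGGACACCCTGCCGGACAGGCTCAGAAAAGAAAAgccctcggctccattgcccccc

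**Figure D2:**
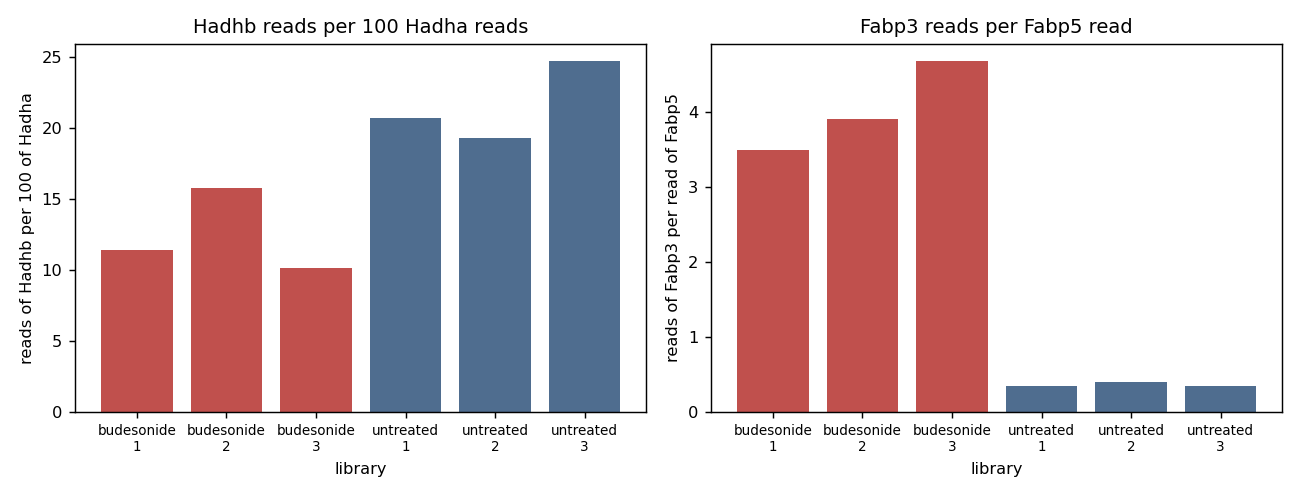
Bars from 0 give, for each library, the reads of Hadhb per 100 reads of Hadha (left) and the reads of Fabp3 per read of Fabp5 (right), with no scaling between libraries. Budesonide libraries hold 10.1 to 15.8 Hadhb reads against 19.3 to 24.7 in untreated libraries, and more Fabp3 than Fabp5 reads where untreated libraries hold fewer.

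Plin2 and Angptl4 mark lipid loading in many cells. Plin2, a coat protein of lipid droplets, was at 11.7, 8.98 and 10.1 CPM with budesonide, against 5.49, 7.59 and 6.13 CPM in untreated libraries. The groups did not overlap, but the values rest on 36 to 83 reads a library. The log2 fold change was 0.68 ± 0.19 (SE), and the call was lost without budesonide replicate 1 (log2 fold change 0.57). Angptl4, a secreted inhibitor of lipoprotein lipase and a known glucocorticoid and PPAR target, was at 5.78, 5.003 and 5.15 CPM with budesonide, against 6.55, 6.05 and 4.40 CPM in untreated libraries. The groups overlapped, and the log2 fold change of -0.09 ± 0.23 (SE) was not called and changed sign between settings, from -0.23 to 0.03.

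**Figure D3:**
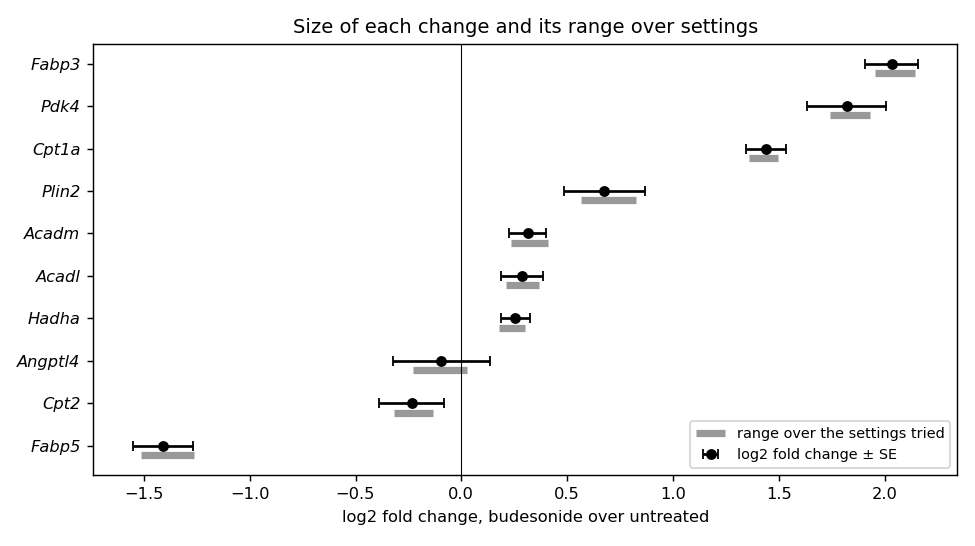
Points give the log2 fold change (budesonide over untreated) of each gene with its SE, and grey bars the lowest and highest value over the settings tried, left-out libraries included. Fabp3, Pdk4, Cpt1a and Fabp5 keep their size, from 1.96 to 2.14 for Fabp3 and from -1.52 to -1.26 for Fabp5, while Angptl4 spans 0.

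Levels of different genes can be set side by side only per length, here as CPM per kb of the longest annotated transcript of GENCODE M21. Fabp3 was highest with budesonide, at 48.3 ± 1.85 CPM per kb (SD, n = 3), against 11.8 ± 1.36 CPM per kb in untreated libraries, where it came after Acadm, Hadha and Acadl. Behind it with budesonide came Acadm at 28.2, Hadha at 23.8 ± 0.920, Acadl at 21.3 ± 1.87 and Cpt1a at 14.5 CPM per kb, of which Hadha and Acadl lay within 2 SD of each other. Plin2 and Cpt2 followed at 5.44 ± 0.723 and 5.19 ± 0.603 CPM per kb, which did not differ beyond their spread, then Pdk4 at 4.39 and Fabp5 at 3.09 CPM per kb, and Angptl4 was lowest at 1.61 CPM per kb. In untreated libraries Acadm led with 22.7 ± 2.42 CPM per kb, Pdk4 was lowest with 1.23 CPM per kb and Angptl4 was next with 1.71 CPM per kb. This order rests on the transcript used. With the median length of a gene's transcripts, Hadha (89.3), Acadm (81.6) and Cpt1a (67.7) stood above Fabp3 (48.3 CPM per kb) with budesonide, and in untreated libraries Hadha (74.8) led Acadm (65.6) and Angptl4 (4.66) was below Pdk4 (7.46 CPM per kb). For Fabp5 the longest transcript, of 3238 bases, is not a coding one and gives 3.09 CPM per kb with budesonide and 8.32 CPM per kb without. Its coding one, of 987 bases, gives 10.2 and 27.3 CPM per kb and puts Fabp5 at the top in untreated libraries.

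The spread within a group was ordinary. Over the 10 genes the coefficient of variation between libraries was 2.51% to 13.6% with budesonide (median 8.27%) and 3.51% to 19.9% in untreated libraries (median 11.1%), where the median of all tested genes was 11.7% and 10.9%. Fabp3 and Pdk4 were also set against all 11083 other genes of at least 5 CPM by the root mean square difference of their log2 CPM, centred on the mean of the 6 libraries. Nearest to Fabp3 were Abca1, the cholesterol export pump (0.08 on the log2 scale), Mymx, a muscle cell fusion peptide (0.12), Phf11d (0.14), Nr0b1, a nuclear receptor of embryonic stem cells (0.17) and Pdk4 itself (0.18). Nearest to Pdk4 were Nupr1, a stress-induced chromatin protein (0.07), Mymx (0.10), Ppfibp2 (0.13), Nr0b1 (0.14) and E330020D12Rik (0.16). With 2 groups of 3, this likeness reflects mostly a rise of like size, from 1.603 (Ppfibp2) to 2.03 (Abca1) on the log2 scale for the genes named here.

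Beside these 10, 7 further lists of fatty acid and fuel genes, 150 genes in all, were examined. Of 121 tested, 33 rose and 13 fell, which is 27.3% and 10.7%, with 15.2% and 13.5% over all tested genes. The median log2 fold change was 0.14, against -0.02 over all genes. The lists were drawn up with earlier results known, and these shares are a description.

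**Figure D4:**
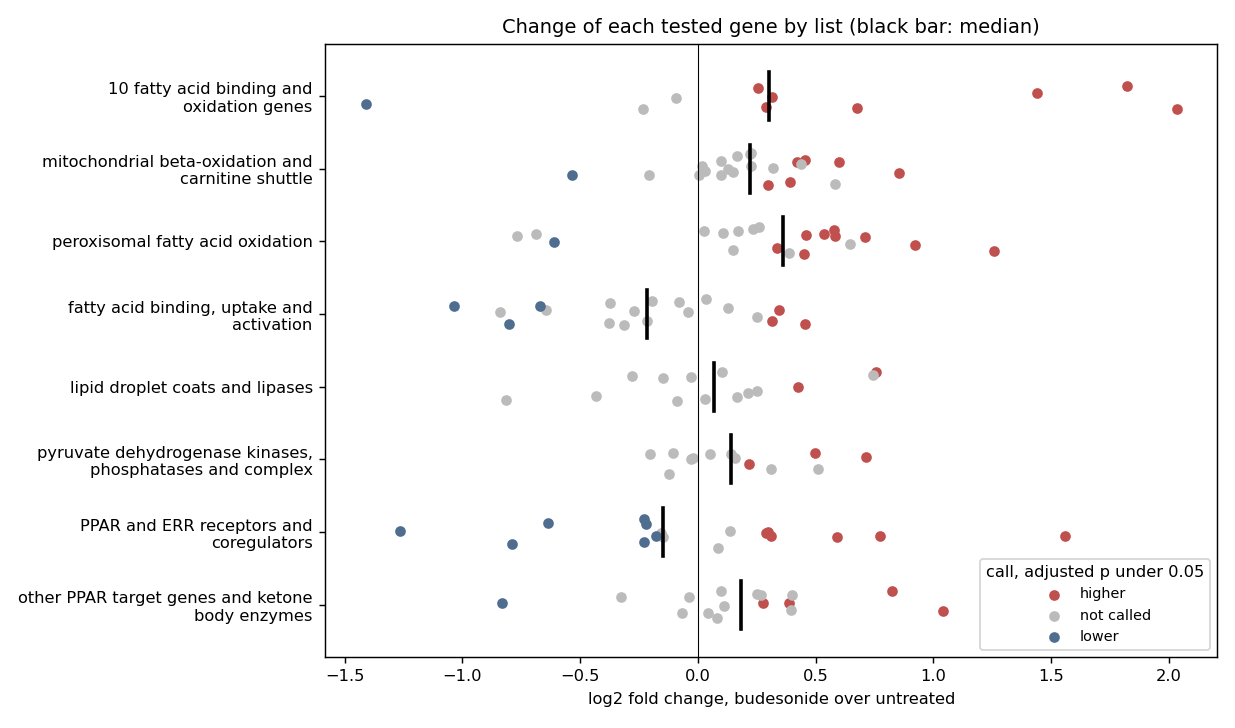
Each point is a tested gene placed by its log2 fold change (budesonide over untreated) in 1 of 8 lists, coloured by whether it was called higher, not called or called lower, with the median as a black bar. The peroxisomal list has the highest median among the 7 further lists, at 0.36, and the binding, uptake and activation list the lowest, at -0.22.

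Among other genes of mitochondrial beta-oxidation and the carnitine shuttle, 6 of 22 tested rose and 1, Hadhb, fell (median log2 fold change 0.22). That is 27.3% and 4.55%, with 15.2% and 13.5% over all genes. Of 3 genes for the carriers that take electrons from the dehydrogenases, 2 rose: Etfdh rose to 20.8 ± 1.02 CPM with budesonide, against 13.7 ± 0.763 CPM in untreated libraries (SD, n = 3 each; edgeR adjusted p = 0.000331), and Etfa to 45.4 ± 2.20 CPM, against 33.2 ± 1.12 CPM. Etfb, for the other subunit of the flavoprotein that Etfa belongs to, was at 5.92 ± 0.897 CPM with budesonide and 3.997 ± 1.41 CPM without and was not called (edgeR adjusted p = 0.0864). Hadh, the short-chain hydroxyacyl-CoA dehydrogenase, rose 1.23-fold, and Acad11, described above, was also among the 6. The other 2, named after their values were seen, act on malonyl-CoA, which inhibits CPT1. Acacb, which makes it, rose 1.31-fold and Mlycd, which breaks it down, 1.81-fold. The Mlycd counts were low, at 34, 39 and 40 reads with budesonide and 29, 21 and 15 reads without (edgeR adjusted p = 0.012).

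Of 20 tested genes of peroxisomal fatty acid oxidation 9 rose and 1 fell (median log2 fold change 0.36). These are 45% and 5% of the list, beside 15.2% and 13.5% over all genes. Acox3, a peroxisomal acyl-CoA oxidase, rose to 37.3 ± 2.74 CPM with budesonide, against 15.5 ± 1.33 CPM in untreated libraries (SD, n = 3 each; log2 fold change 1.26 ± 0.12, SE; edgeR adjusted p = 2.36e-12). The transporter gene Abcd3 rose 1.37-fold. Crot, which hands shortened chains to carnitine for export from the peroxisome, fell 1.53-fold. The number of rises was 5 in DESeq2, with all genes kept, and without budesonide replicate 1 or untreated replicate 1.

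Of 19 tested genes of fatty acid binding, uptake and activation, 3 were higher and 3 lower (median log2 fold change -0.22), which is 15.8% each way and near the 15.2% and 13.5% over all genes. Among them were the long-chain acyl-CoA synthetases, which activate fatty acids. Acsl4, known for its preference for arachidonic acid, rose to 86.8 ± 1.90 CPM with budesonide, against 63.4 ± 1.91 CPM in untreated libraries (SD, n = 3 each; edgeR adjusted p = 1.88e-06). Acsl3, Acsl5 and Acsl6 fell 1.74-fold, 2.05-fold and 1.59-fold. Acsl1 and the acyl-CoA binding protein gene Dbi were called higher (adjusted p = 0.0463 and 0.0357), but neither was in DESeq2 (0.147 and 0.129) or without budesonide replicate 2 (0.293 and 0.196), untreated replicate 2 (0.165 and 0.0692), untreated replicate 3 for Acsl1 (0.106), or budesonide replicate 1 or untreated replicate 1 for Dbi (0.166 and 0.0904). Both calls were also lost with upper quartile scaling, with library totals alone and with all genes kept, and that of Dbi in limma. Of 4 tested Slc27a fatty acid transporter genes, none was called.

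In the lipid droplet list 2 of 14 tested genes rose and none fell (median log2 fold change 0.07). Over all genes 15.2% rose and 13.5% fell, and the 14.3% that rose here is near the former. Plin3, the broadly expressed perilipin, rose to 60.2 ± 2.85 CPM with budesonide, against 35.6 ± 2.39 CPM in untreated libraries (SD, n = 3 each; edgeR adjusted p = 1.39e-09), and Lpin1, a phosphatidate phosphatase that also acts as a coactivator of PPARα, rose 1.34-fold. The lipase genes Pnpla2, Lipe, Mgll and Lpl were not called.

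Around pyruvate dehydrogenase, 3 of 13 tested genes rose and none fell (median log2 fold change 0.14). The share that rose was 23.1%, where 15.2% rose and 13.5% fell over all genes. Pdhb, the beta chain of the E1 subunit, rose to 82.5 ± 8.45 CPM with budesonide, against 50.5 ± 2.95 CPM in untreated libraries (SD, n = 3 each; edgeR adjusted p = 8.07e-10). Pdk1, the hypoxia-inducible kinase gene, rose 1.41-fold (edgeR adjusted p = 2.19e-08), and Pdha1, the alpha chain, 1.16-fold. The call of Pdha1 was lost with library totals alone (adjusted p = 0.0707) and with all genes kept (0.0560). Pdk2 and Pdk3 were not called (edgeR adjusted p = 0.425 and 0.905), and the number of rises in this list was 5 without budesonide replicate 3.

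Among receptors and coregulators 6 of 17 tested genes rose and 7 fell (median log2 fold change -0.15). Those shares are 35.3% and 41.2%, beside 15.2% and 13.5% over all genes. Ppard was the PPAR gene with enough reads for a test, at 39.9 ± 2.15 CPM with budesonide and 32.4 ± 0.654 CPM in untreated libraries (SD, n = 3 each; edgeR adjusted p = 0.0154). That call was lost in DESeq2 (0.0573), with library totals alone (0.0782), with all genes kept (0.0721) and without budesonide replicate 3 (0.0679). Ppara averaged 0.934 and 1.10 CPM and Pparg 0.593 and 1.53 CPM, and neither was tested. The partner receptors of the PPARs fell: Rxra to 17.9 ± 4.60 CPM with budesonide, against 30.5 ± 1.60 CPM in untreated libraries, and Rxrg 2.41-fold, while Rxrb was not called. Esrrb, an ERR family receptor of the naive stem cell state, rose to 285 ± 21.5 CPM, against 96.5 ± 7.76 CPM in untreated libraries. Its relative Esrra, known in adult tissues for driving oxidation genes and named after its values were seen, fell to 5.51 ± 0.480 CPM, against 8.64 ± 1.67 CPM. The deacetylase gene Sirt1 rose 1.71-fold and Foxo3 1.51-fold, and the coactivator gene Pprc1 fell 1.17-fold. Foxo1, named after its values were seen, was at 69.8 ± 1.19 CPM with budesonide and 77.2 ± 5.04 CPM without. It was not called (edgeR adjusted p = 0.133). The glucocorticoid receptor gene Nr3c1 was at 41.0 ± 1.65 CPM with budesonide and 33.5 ± 2.80 CPM without (edgeR adjusted p = 0.0191). The Nr3c1 call was lost in DESeq2 (0.0687), with upper quartile scaling (0.0566), with library totals alone (0.0908) and with all genes kept (0.0802). It was also lost without budesonide replicate 3 (0.0536) or untreated replicate 1 (0.0924).

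Of other known PPAR targets and ketone body enzymes, 4 of 16 tested rose and 1 fell (median log2 fold change 0.18). Their shares were 25% and 6.25%, with 15.2% and 13.5% over all genes. Scd1, a fatty acid desaturase, rose 2.06-fold, to 213 ± 6.22 CPM with budesonide against 104 ± 10.1 CPM in untreated libraries (SD, n = 3 each; edgeR adjusted p = 1.34e-17), the desaturase gene Fads2 1.31-fold and the mitochondrial carrier gene Ucp2 1.77-fold. Acot1, an acyl-CoA thioesterase, fell 1.78-fold, and not without budesonide replicate 2 (edgeR adjusted p = 0.0644). Fgf21, a liver hormone gene of the fasting response, had too few reads to be tested.

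Markers of cell types in which these genes are best known were mostly low. Of 7 cardiac markers 5 were tested, of which Ryr2 rose and Myh6 fell, and their summed level was 165 to 186 CPM with budesonide and 101 to 109 CPM without, most of it Ryr2 (151 and 66.5 CPM on average). None of 6 skeletal muscle markers had enough reads for a test, with sums of 4.04 to 4.37 CPM and 3.46 to 4.88 CPM. Of the 6 genes listed as adipocyte markers, Adipor2, a receptor gene, alone was tested and rose, to 104 CPM against 75.5 CPM in untreated libraries. Adipoq, Cebpa, Lep, Cfd and Retn had too few reads for a test, and Adipoq averaged 0.415 and 0.838 CPM. Of 8 visceral endoderm or hepatocyte markers 3 were tested and none was called, with sums of 15.6 to 16.8 CPM and 16.3 to 21.8 CPM. No listed marker was at 0 in all libraries, and their part in the changes above was not tested.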

How the data were processed

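Per the labels' protocols, the libraries were made with a stranded mRNA kit. The authors deposited raw counts per gene symbol, and also a normalized signal for 33560 genes. Within each library that signal was the count over 1 common factor, with errors up to 0.00562 reads. Tools listed in the submitters' processing notes are STAR 2.7.5c with GRCm39, cutadapt 2.5, bcl2fastq, featureCounts 2.0 and DESeq2. The gene annotation and the strand setting of the counting: not given in the sources used here. The genes and lists were chosen with earlier results of these data known.

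Groups and replicate numbers came from the titles. Chi-square values per gene between libraries of a group ran from 1.40 to 2.67, above the 1 of sampling noise, and each library was kept as its own replicate. The main test was edgeR 4.0.16 in R 4.3.3: filterByExpr (minimum count 10, total 15), TMM, robust quasi-likelihood fit on group, Benjamini-Hochberg over 17155 genes, threshold 0.05. Log2 fold changes are budesonide over untreated, SEs come from the F statistic, and means ± SD are of TMM-scaled CPM. DESeq2 1.42.0, limma 3.58.1 (on log2 of the normalized signal plus 1), other scalings and filters, a replicate block, stricter thresholds and each library left out were alternatives. Named were the 10 genes, tested Fabp and Pdk genes, PPAR genes and Nr3c1, and per list up to 3 called genes a direction with the smallest adjusted p and at least 1 CPM; others are said to be named after their values were seen, and some genes are not reported here. Lengths came from GENCODE M21 (GRCm38), sequences from RefSeq (GRCm38.p6), and near-identical transcripts from blastn 2.17.0 (95% identity, 200 bases). The coding-transcript length and the GC and CCAAT boxes were added after seeing the data.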

Additional observations from a re-analysis of the deposited data

How the results depend on the processing

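Fabp3, Fabp5, Pdk4 and Cpt1a kept their direction and call in all 16 alternatives, and no called gene among those followed over all settings reversed. Of the 10 genes 7 were called higher, 6 in DESeq2, with upper quartile scaling, with library totals alone, with all genes kept and at an adjusted p under 0.01, 4 at over 1.5-fold, and 5 to 7 with a library left out. Over all genes 2601 rose and 2316 fell. These were 996 and 1232 at over 1.5-fold, 2003 and 3186 with library totals alone, 2178 and 2873 with upper quartile scaling, and 2035 and 1599 in DESeq2 (2111 to 2634 and 1888 to 2126 with a library left out), so the share of higher calls moved with the scaling. At over 1.5-fold the rises were 2 in the mitochondrial, 3 in the peroxisomal, 0 in the uptake, 1 in the droplet, 1 in the pyruvate dehydrogenase, 3 in the receptor and 2 in the target list, and the falls were 0 in the mitochondrial and 3 in the receptor list. In the peroxisomal list 5 rose in DESeq2, with all genes kept and at an adjusted p under 0.01 (5 to 9 with a library left out). In the uptake list 1 rose in those settings and with upper quartile scaling or library totals alone (1 to 3), and 5 fell with either scaling. With either scaling 1 gene fell in the droplet list (0 to 1) and 1 in the pyruvate dehydrogenase list, where 3 to 5 rose with a library left out. In the receptor list 4 fell at an adjusted p under 0.01 (4 to 7). In the mitochondrial and target lists 0 to 1 fell. The cause of these changes was not tested. Whether the replicate numbers pair the samples cannot be told from 3 libraries a group. Correlations of deviations between libraries of the same number were 0.0404, 0.0595 and -0.0176, and 4 of 6 libraries were closest to their own number. With the number as a block 2649 genes rose and 2337 fell, and 7 of the 10 genes were higher and 1 lower. With the coding transcript the level of Fabp5 moved, and with the median transcript length every level per kb with budesonide except that of Fabp3 changed by more than its SD, which put Fabp3 below Hadha, Acadm and Cpt1a. Genes with few reads, such as Pparg, were kept out of the main test by the filter on low counts.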
